A study of Homo sapiens with 6 samples.

Results

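The HOX windows are 4 stretches of the genome that hold the HOXA, HOXB, HOXC and HOXD gene clusters, and the members described here are the H3K4me2 regions that overlap them. The windows are, in hg19, chr7:27130000-27250000 (HOXA), chr17:46600000-46710000 (HOXB), chr12:54330000-54450000 (HOXC) and chr2:176955000-177058000 (HOXD), 453 kb in all. Within the windows, position alone chose the members, although the set was picked with earlier results of these data known. They numbered 208 of the 359493 records in the 3 region lists, namely 73 of 101165 in the vehicle list, 69 of 129776 in the GSK 4 h list and 66 of 128552 in the GSK 24 h list. HOXB13, which lies apart from the rest of its cluster, was left out.

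H3K4me2, dimethylated lysine 4 of histone H3, was mapped by ChIP-seq, the sequencing of DNA pulled down with an antibody to the mark, in LNCaP, a prostate cancer cell line that responds to androgen. The 6 samples form 3 groups of 2 replicates, and the cells of every group had been held for 3 days in charcoal-stripped serum, which is low in steroids. The control group is labelled as vehicle without GSK, and both treated groups carry the label of DHT, an androgen, together with GSK2879552, an inhibitor of the demethylase LSD1, for 4 or 24 h. The treatment protocol names the inhibitor alone, so DHT and the inhibitor cannot be told apart in any comparison with vehicle. One region list was deposited per group, made from both replicates, and the labels give both replicates of a group the same pair of index sequences. No spread between replicates can therefore be had, no test between groups was possible, and the intervals below cover counting error only, except where an interval over regions is named.

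HOX genes encode homeodomain transcription factors that set position along the body axis. Within a cluster they are lined up in the order in which they act, from low-numbered paralogs used toward the head, such as HOXB1 and HOXD1, to high-numbered ones used toward the tail and in the urogenital tract and distal limb, such as HOXA13 and HOXD13. Silent HOX genes are held by Polycomb proteins and active ones by Trithorax-type methyltransferases that methylate lysine 4 of histone H3, and the clusters are rich in CpG islands. LSD1 (KDM1A) removes mono- and dimethylation from that lysine.

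The 37 member genes are HOXA2, HOXA3, HOXA4, HOXA5, HOXA6, HOXA7, HOXA9, HOXA10, HOXA11 and HOXA13 in the HOXA window, HOXB1 to HOXB9 in the HOXB window, HOXC4, HOXC5, HOXC6, HOXC8, HOXC9, HOXC10, HOXC11, HOXC12 and HOXC13 in the HOXC window, and HOXD1, HOXD3, HOXD4, HOXD8, HOXD9, HOXD10, HOXD11, HOXD12 and HOXD13 in the HOXD window. By the RefSeq gene order, the low-numbered paralogs lie at the low-coordinate end of HOXA and HOXB and at the high-coordinate end of HOXC and HOXD. The gene tables used here are of GRCh38.p14 and the regions are of hg19, so the assignment of single regions to single genes was not analysed here.

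Of the member genes, 20 had an entry in the RefSeq promoter table, which spans 300 bases around each start. The comparison of CpG dinucleotides was made for HOXA, where 9 of 10 genes had an entry, and for HOXD, where 8 of 9 did, and it is void for HOXB (1 of 9) and HOXC (2 of 9). HOXA starts held a median of 21.5 CpG (0 to 44, 16 starts) and HOXD starts a median of 24.5 (4 to 36, 8 starts), against a median of 14 over all 35116 starts in the table. For each of these clusters, the promoters with the most and the fewest CpG among genes with 1 start in the table are shown. The HOXA start with 0 CpG is therefore not among them. Each is the 250 bases before the start, read 5′ to 3′ on the gene's strand in GRCh38.p14, with CpG in capitals. HOXA13 is at chr7:27200092-27200341 (minus strand), HOXA2 at chr7:27102684-27102933 (minus strand), HOXD1 at chr2:176188418-176188667 (plus strand) and HOXD4 at chr2:176151300-176151549 (plus strand). The sequences are not placed on the hg19 regions.
HOXA13: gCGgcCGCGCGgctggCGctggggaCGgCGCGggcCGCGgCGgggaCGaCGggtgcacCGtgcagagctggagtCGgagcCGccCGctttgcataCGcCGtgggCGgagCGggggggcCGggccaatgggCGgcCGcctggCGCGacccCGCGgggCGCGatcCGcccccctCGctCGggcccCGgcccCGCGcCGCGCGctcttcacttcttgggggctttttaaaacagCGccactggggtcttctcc
HOXA2: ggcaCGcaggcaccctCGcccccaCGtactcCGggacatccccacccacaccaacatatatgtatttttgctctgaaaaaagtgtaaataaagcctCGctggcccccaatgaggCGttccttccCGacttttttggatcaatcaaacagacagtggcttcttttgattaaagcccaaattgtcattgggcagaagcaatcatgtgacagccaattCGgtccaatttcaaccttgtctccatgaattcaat
HOXD1: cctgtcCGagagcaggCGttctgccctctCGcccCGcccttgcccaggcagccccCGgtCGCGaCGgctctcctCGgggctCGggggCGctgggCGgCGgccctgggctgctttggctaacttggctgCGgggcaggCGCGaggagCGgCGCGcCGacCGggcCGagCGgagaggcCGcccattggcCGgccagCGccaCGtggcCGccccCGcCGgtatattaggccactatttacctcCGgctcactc
HOXD4: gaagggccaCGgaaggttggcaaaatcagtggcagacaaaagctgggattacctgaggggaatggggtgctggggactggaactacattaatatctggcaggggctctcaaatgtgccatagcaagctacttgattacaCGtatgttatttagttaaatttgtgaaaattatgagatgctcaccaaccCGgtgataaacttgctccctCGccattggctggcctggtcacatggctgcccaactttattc
The 300-base entry of HOXA13 held 44 CpG and that of HOXA2 held 11. For HOXD1 and HOXD4 the counts were 36 and 4. Fewer CpG than in HOXA13 were found in 95.8% of all entries, fewer than in HOXD1 in 87.3%, fewer than in HOXA2 in 45.3% and fewer than in HOXD4 in 24.5%, so HOXA2 lay near the middle of the table.

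All 4 windows were densely marked in all 3 lists. Regions covered 51.9 kb of the 453 kb in vehicle, 55.9 kb in GSK 4 h and 51.7 kb in GSK 24 h, which is 11.5, 12.3 and 11.4% of the windows, against 1.93, 2.31 and 2.43% of the genome. Set among all stretches of the same length that held a region, each window had a larger covered share than 97.55% or more of them in every list. HOXC was the most covered window, with 13.6% in vehicle, 15.6% in GSK 4 h and 13.8% in GSK 24 h. HOXD was the least covered, with 9.04, 9.19 and 8.54%.

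The number of regions in a window differed little between lists, although the GSK lists are longer than the vehicle list. HOXA held 19 regions in vehicle (95% Poisson interval 11.4 to 29.7), 18 in GSK 4 h and 20 in GSK 24 h. HOXB held 16, 15 and 14, HOXC 27, 23 and 22, and HOXD 11, 13 and 10. For each window, the 3 counts lie within the Poisson interval of its vehicle count. As a share of the list on the main chromosomes, the HOX regions were 0.0730% in vehicle, 0.0538% in GSK 4 h and 0.0519% in GSK 24 h. With lists cut to equal length they numbered 73, 64 and 57. The widest HOX region of each list lay in HOXB, at 1984 bp in vehicle, 2078 bp in GSK 4 h and 2116 bp in GSK 24 h. In HOXA the widest measured 1368, 1807 and 1595 bp, in HOXC 1653, 1784 and 1653 bp and in HOXD 1369, 1521 and 1419 bp.

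Each window also had a long stretch with no region. In HOXA it ran over 14.2 kb in vehicle (chr7:27224669-27238900), and stretches of 14.3 and 14.2 kb lay at the same place in GSK 4 h and GSK 24 h. In HOXD it ran over 25.9 kb in vehicle (chr2:177016712-177042570) and over 31.1 and 31.6 kb in the GSK lists. The HOXB stretch measured 23.7, 23.4 and 27.6 kb and the HOXC stretch 16.7, 22.3 and 22.6 kb. These stretches lay at the same place in all 3 lists in HOXA and HOXD, and at another place in at least 1 list in HOXB and HOXC.

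The height of a region is given as the number of fragments over its summit, recovered from the deposited values, divided by the genome-wide mean of its list. By height, HOX regions stood high among all regions. Their median height was 33.6 in vehicle, 28.2 in GSK 4 h and 22.4 in GSK 24 h, against 11.0, 11.2 and 10.7 over all regions. The median HOX region was taller than 86.2% of its list in vehicle, 82.7% in GSK 4 h and 79.9% in GSK 24 h.

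By the deposited fold enrichment, which divides by the local background, the same regions were average. Their median fold of 4.97, 4.96 and 4.90 lay at the 50.2, 51.8 and 54.2 percentile of its list. The local background is read from the tags in 10 kb around a summit, and its median over HOX regions was 5.33, 6.17 and 4.51 times the genome-wide mean, against 1.56, 1.53 and 1.59 over all regions. HOXC showed the gap most plainly, since its median vehicle region stood at the 87.5 percentile by height and at the 29.1 percentile by fold, with a local background of 8.89 times the mean. HOXD lay at the other end in vehicle, at the 92.6 percentile by height and the 94.9 percentile by fold. The height is used below for levels, and the fold as an alternative.

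**Figure D1:**
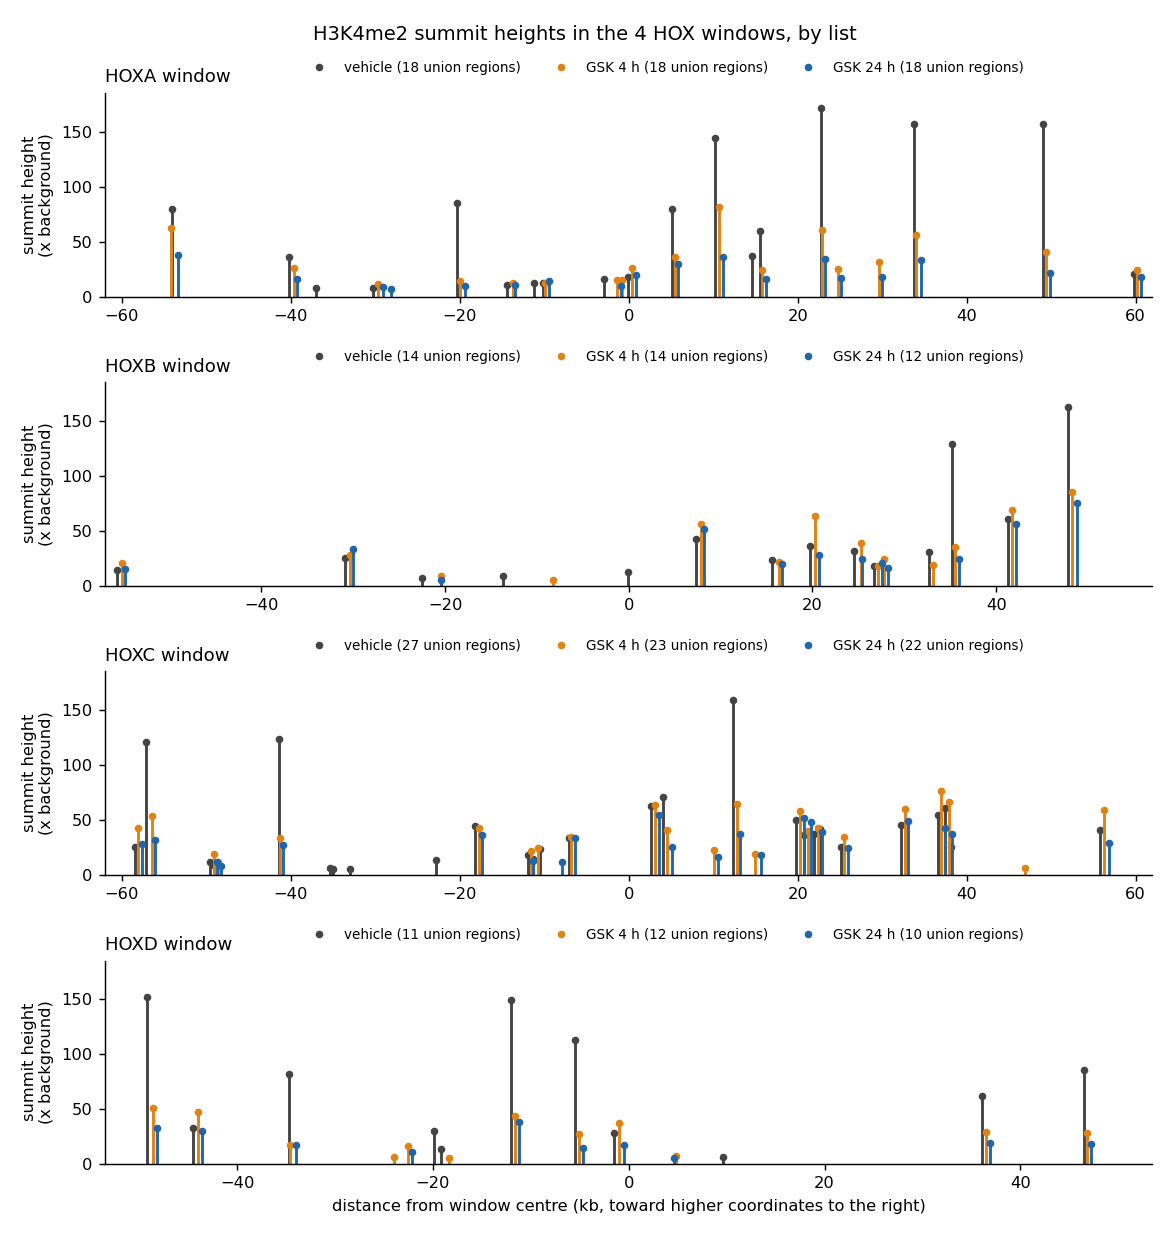
Summit height (times the genome-wide background) of each union region against its distance from the window centre (kb), for vehicle (dark grey), GSK 4 h (orange) and GSK 24 h (blue), drawn slightly apart. The tallest vehicle summits, up to 171 in HOXA, have much lower GSK summits beside them, the highest at 85.5. Of the matched HOXC regions, 4 of 20 were lower and 3 higher by 1.5-fold in GSK 4 h than in vehicle (genome 11.1% lower and 24.2% higher). In GSK 24 h, 5 of 19 were lower than in vehicle (genome 10.1%), and 9 of 21 were lower than in GSK 4 h (genome 18.4%). All of these counts are by height and depend on the scale.

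In the HOXA window the tallest vehicle regions were far lower in both GSK lists. The tallest, chr7:27212551-27213918, had 357 fragments over its summit in vehicle, 114 in GSK 4 h and 68 in GSK 24 h. At chr7:27223722-27224668 the counts were 328, 105 and 66, and at chr7:27238901-27239992 they were 327, 77 and 42. Each window was cut into 3 equal sections, and all 3 of these regions lie in the section toward the high-numbered paralogs, where the median vehicle height of 3 summits was 157, against 27.6 in the middle section (10 summits) and 22.3 in the low-paralog section (6 summits). In GSK 24 h the same sections had medians of 21.4 (5 summits), 13.7 (9 summits) and 15.8 (5 summits). Those 5 high-paralog summits include some with no vehicle region, so the section medians do not compare the same regions. The 3 regions named above had GSK 24 h heights of 34.6, 33.6 and 21.4. The tallest HOXA regions of the treated lists lay elsewhere. For GSK 4 h it was at chr7:27200101-27201110, where vehicle had 301 fragments, GSK 4 h 154 and GSK 24 h 71, and for GSK 24 h it was in the union region chr7:27134930-27136908, with 167, 117 and 75.

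In the HOXB window 2 regions were tall in vehicle and lower after treatment, and most others stayed near their vehicle height. At chr17:46702244-46704227, the widest and tallest HOXB region of each list, the summit had 338 fragments in vehicle, 161 in GSK 4 h and 147 in GSK 24 h. At chr17:46690145-46691163 it had 268, 67 and 48. Between them, chr17:46696165-46697324 had 127, 129 and 110. The high-paralog section held 9 summits in each list and was covered to 22.1% in vehicle, 23.3% in GSK 4 h and 22.1% in GSK 24 h, while the low-paralog section held 2 summits in each list.

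The HOXC window carried the largest number of regions. Its median region was taller than 87.5% of the list in vehicle, 91.4% in GSK 4 h and 89.3% in GSK 24 h. Its tallest vehicle region, chr12:54402393-54403209, had 332 fragments, against 121 in GSK 4 h and 73 in GSK 24 h. At chr12:54348649-54349417 the counts were 257, 63 and 54, and at chr12:54332640-54333860 they were 251, 101 and 62. These 3 stood far above the other HOXC regions of the vehicle list, whose highest count was 147. The section toward the low-numbered paralogs such as HOXC4 held 10 summits in vehicle with a median height of 41.0, 9 in GSK 4 h with 57.9 and 8 in GSK 24 h with 40.4. There, chr12:54422238-54423131 had 94, 113 and 97 fragments and chr12:54426835-54427385, the tallest HOXC region of GSK 4 h, had 113, 143 and 83. The tallest of GSK 24 h lay in the union region chr12:54392342-54393850, with 130, 119 and 106.

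The HOXD window had the fewest regions and the tallest median in vehicle. Its median height was 61.4 in vehicle, 27.1 in GSK 4 h and 17.8 in GSK 24 h. At chr2:176957152-176958231 the summit had 316 fragments in vehicle, 95 in GSK 4 h and 64 in GSK 24 h, and at chr2:176994294-176995549 it had 311, 82 and 75. At chr2:177001077-177001794 it had 235, 51 and 29, and at chr2:177052910-177054022 it had 177, 53 and 36. Of the 7 HOXD regions matched 1 to 1 between vehicle and GSK 4 h, 2 differed from these and were taller in GSK 4 h. Near the high-paralog end, chr2:176962037-176962902 had 68 in vehicle, 89 in GSK 4 h and 59 in GSK 24 h. The other, chr2:177005316-177005674, had 59, 70 and 34.

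The tallest summit of each window was ranked among those of equally long stretches of the same list, and the lists differ in length. HOXA stood above 97.4% of stretches in vehicle, 99.03% in GSK 4 h and 82.3% in GSK 24 h, and HOXD above 94.6, 84.8 and 83.8%. HOXB stood above 96.1, 99.5 and 99.5%, and HOXC above 95.4, 97.9 and 95.3%. The rank was thus lower in GSK 24 h than in vehicle for HOXA and HOXD, and not lower than 95.3% in any list for HOXB and HOXC.

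Whether a region was listed at all was compared next, counting an overlap of 1 bp as shared. Of the 73 vehicle HOX regions, 56 overlapped a GSK 4 h region (76.7%, Wilson 95% interval 65.8 to 84.9), against 84.3% of all vehicle regions. Against GSK 24 h it was 54 (74.0%, 62.9 to 82.7), with a background of 86%. The first background share lies inside its interval, and the second lies above it. In the other direction, 55 of 69 GSK 4 h HOX regions overlapped a vehicle region (79.7%, 68.8 to 87.5, background 67%), and 54 of 66 GSK 24 h HOX regions did (81.8%, 70.9 to 89.3, background 68%). The GSK lists shared more with each other: 61 of 69 GSK 4 h HOX regions lay in GSK 24 h (88.4%, 78.8 to 94.0, background 78.2%) and 63 of 66 GSK 24 h HOX regions in GSK 4 h (95.5%, 87.5 to 98.4, background 77.7%). The comparisons with vehicle share that 1 list, and neighbouring regions of one window are not independent draws.

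Merged over the 3 lists, the windows held 87 union regions. Of these, 51 were in all 3 lists (58.6%, against 47.9% of all 151839 union regions) and 17 were in vehicle alone (19.5%, against 5.45%). Another 8 were in both GSK lists and not in vehicle (9.20%, against 11.0%), 6 in GSK 4 h alone (6.90%, against 14.5%) and 3 in GSK 24 h alone (3.45%, against 14.3%). Another 2 were in vehicle and GSK 4 h (2.30%, against 2.97%) and 0 in vehicle and GSK 24 h (against 3.84%), and counts this small do not set the HOX share apart from the genome share.

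**Figure D2:**
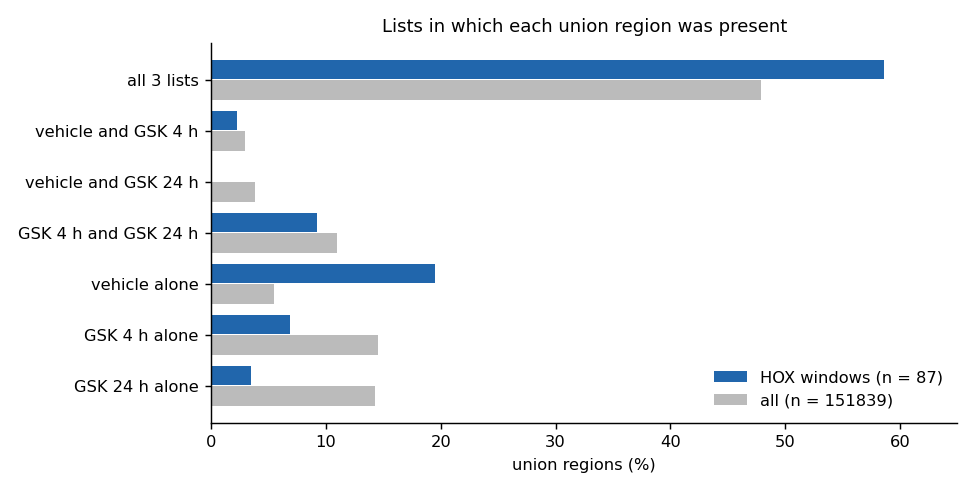
Percent of union regions present in each combination of lists, for the HOX windows (blue, n = 87) and the genome (grey, n = 151839). The HOX share exceeds the genome share for all 3 lists (58.6% against 47.9%) and for vehicle alone (19.5% against 5.45%), and is below it for each GSK list alone.

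The vehicle regions that overlapped neither GSK list were thus 17 of 73 (23.3%, Wilson interval 15.1 to 34.2), against 8.27% of all vehicle regions. They were 4 in HOXA, 3 in HOXB, 7 in HOXC and 3 in HOXD, with 10 to 87 fragments over the summit. The 5 with the highest −log10 q were chr2:176986606-176987479 in HOXD with 62 fragments, chr12:54412971-54413250 in HOXC with 87, chr17:46655146-46655604 in HOXB with 26, chr7:27204830-27205166 in HOXA with 77 and chr12:54379841-54380148 in HOXC with 48. Many were not far from a treated region: 9 of the 17 lay within 1 kb of a GSK region, among them the HOXC region with 87 fragments, 178 bp from the next GSK 4 h region, and the HOXA region with 77, 189 bp away. The distance was not computed for the absent vehicle regions of the rest of the genome. A −log10 q of at least 10 was reached by 8 of the 17 (47.1%), against 14.7% of all vehicle regions absent from both GSK lists. It was reached by 52 of all 73 vehicle HOX regions, so the absent ones were the weaker HOX regions by this measure.

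Of the 8 regions in both GSK lists and not in vehicle, the 5 with the highest −log10 q had 59 fragments or fewer over the summit. At chr2:176983734-176984147 in HOXD the union region had 31 fragments in GSK 4 h and 21 in GSK 24 h, and at chr7:27219244-27219909 in HOXA it had 59 and 35, the former taller than 85.4% of the GSK 4 h list. At chr17:46682572-46682888 in HOXB it had 45 and 31, at chr12:54404839-54405563 in HOXC 36 and 35, and at chr7:27188397-27188813 in HOXA 29 and 19. The GSK 4 h count was the higher one in each of these 5.

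For the comparison of heights, regions of 2 lists were matched 1 to 1, and a region was called lower or higher when its height ratio passed 1.5-fold. In GSK 4 h against vehicle, the 48 matched HOX regions split by cluster. The median log2 ratio was −1.17 in HOXA (n = 11), 0.08 in HOXB (n = 10), 0.20 in HOXC (n = 20) and −1.59 in HOXD (n = 7), and 0.00 over all 48, against 0.24 over the 67411 matched regions of the genome. The spread over regions gives order-statistic 95% intervals for these medians of −1.94 to 0.21 in HOXA and −2.06 to 0.54 in HOXD, which hold 0, and the medians shrank to −0.47 and −0.46 by the deposited fold. By 1.5-fold, 19 of 48 were lower (39.6%) and 4 higher (8.33%), with backgrounds of 11.1% lower and 24.2% higher. The lower ones were 7 of 11 in HOXA, 3 of 10 in HOXB, 4 of 20 in HOXC and 5 of 7 in HOXD. The counting interval of the ratio lay below 1 for 19 regions, above 1 for 7 and held 1 for 22.

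In HOXA the lowest GSK 4 h ratio was at chr7:27169691-27170617, where 178 fragments in vehicle stood against 27, a height ratio of 0.168 (0.108 to 0.253). The lowest in HOXB was 0.277 (0.209 to 0.363) at chr17:46690145-46691163, in HOXC 0.271 (0.203 to 0.359) at chr12:54348649-54349417, and in HOXD 0.240 (0.174 to 0.327) at chr2:177001077-177001794. The highest ratios were smaller departures from 1. They were 1.76 (1.31 to 2.38) at chr17:46674469-46675931 in HOXB, with 75 fragments in vehicle and 119 in GSK 4 h, and 1.70 (1.05 to 2.79) at chr12:54378911-54379344 in HOXC, with 30 and 46. In HOXD it was 1.45 (1.05 to 2.02) at chr2:176962037-176962902, and in HOXA 1.43 (0.916 to 2.24) at chr7:27189935-27190836, whose interval holds 1.

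In GSK 24 h against vehicle, no matched HOX region was higher by 1.5-fold. Of 52, 23 were lower by 1.5-fold (44.2%) and 0 higher, with backgrounds of 10.1% lower and 15.8% higher. The median log2 ratio was −1.44 in HOXA (n = 13), −0.02 in HOXB (n = 12), −0.21 in HOXC (n = 19) and −2.09 in HOXD (n = 8), and −0.38 over all 52, against 0.16 over 68815 matched regions. The interval over regions was −2.31 to 0.02 in HOXA and −2.93 to −0.12 in HOXD, and by the deposited fold the medians were −0.57 and −0.47. Lower by 1.5-fold were 9 of 13 in HOXA, 2 of 12 in HOXB, 5 of 19 in HOXC and 7 of 8 in HOXD. The counting interval lay below 1 for the same number, 23, and above 1 for 0.

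The deepest drop was again at chr7:27169691-27170617 in HOXA, from 178 to 19 fragments, a height ratio of 0.113 (0.067 to 0.182). In HOXD the region at chr2:177001077-177001794 had a ratio of 0.131 (0.086 to 0.193), in HOXB the region at chr17:46690145-46691163 one of 0.190 (0.137 to 0.259), and in HOXC the region at chr12:54348649-54349417 one of 0.223 (0.163 to 0.300). These 4 regions were also those with the lowest 1 to 1 matched ratio at 4 h, in comparisons that share the vehicle list. In HOXD the union region chr2:176971360-176972905, with 171 fragments in vehicle and 33 in GSK 4 h, had a lower 4 h ratio of 0.214 (0.143 to 0.312), but its GSK 4 h signal was listed as 2 regions and it had no 1 to 1 match there. The highest ratios were 1.39 (0.878 to 2.23) at chr17:46680250-46681367 in HOXB, 1.31 (0.959 to 1.80) at chr12:54410789-54411576 in HOXC, 1.10 (0.618 to 1.96) at chr7:27180127-27180421 in HOXA and 0.920 (0.638 to 1.32) at chr2:176962037-176962902 in HOXD, and each of their intervals holds 1.

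**Figure D3:**
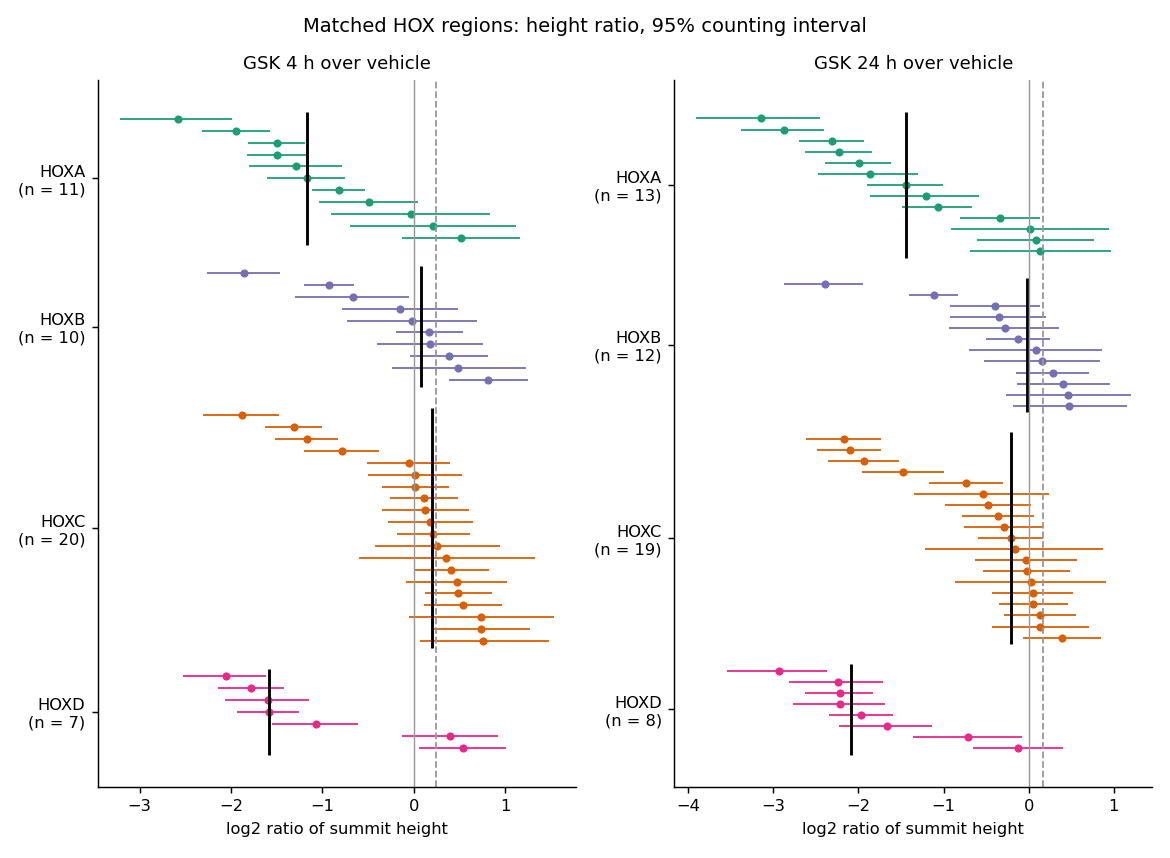
Log2 height ratio of each matched HOX region with its 95% counting interval, for GSK 4 h (left) and GSK 24 h (right) over vehicle, grouped by window. Black bars mark the window medians, which are far below 0 for HOXA and HOXD and near 0 for HOXB and HOXC. The dashed line marks the median of all matched regions (0.24 and 0.16). Intervals over regions hold 0 for HOXA in both panels and for HOXD on the left. By the deposited fold, the HOXA and HOXD medians were −0.47 and −0.46 for GSK 4 h and −0.57 and −0.47 for GSK 24 h.

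The GSK lists were then compared directly, a comparison that does not use the vehicle list. Of 55 matched HOX regions, 51 were lower in GSK 24 h than in GSK 4 h (92.7%), against 61.3% of all matched regions. By 1.5-fold, 27 were lower (49.1%) and 0 higher, with backgrounds of 18.4% and 7.23%. The median log2 ratio was −0.59 in HOXA (n = 15), −0.29 in HOXB (n = 11), −0.50 in HOXC (n = 21) and −0.63 in HOXD (n = 8), against −0.15 over 78948 matched regions. Fragments were shorter in GSK 4 h (186 bp, against 221 bp in vehicle and 219 bp in GSK 24 h), and a summit count depends on that length. With heights scaled by tags per kb alone, the count fell to 8 of 55 (background 8.33%) and the median over all HOX regions was −0.34, against 0.09 over the genome. By the deposited fold the count was 1 (background 9.22%) and the median −0.09, the same as over the genome. On the tag scale the median ratio of GSK 4 h over vehicle was −0.05 in HOXC in place of 0.20, against −0.01 over the genome, and 0 HOX regions were higher by 1.5-fold in GSK 4 h.

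The lowest GSK 24 h over GSK 4 h ratios were 0.434 (0.309 to 0.604) at chr17:46674568-46675985 in HOXB, with 119 and 54 fragments, 0.441 (0.328 to 0.588) at chr7:27200070-27201191 in HOXA, with 154 and 71, 0.465 (0.299 to 0.710) at chr2:177005205-177005845 in HOXD and 0.496 (0.354 to 0.689) at chr12:54445402-54447185 in HOXC. The highest were 1.20 (0.876 to 1.65) at chr12:54410713-54411641 in HOXC, 1.17 (0.804 to 1.72) at chr17:46623771-46625452 in HOXB, 1.12 (0.620 to 2.05) at chr7:27179752-27180381 in HOXA and 0.876 (0.632 to 1.21) at chr2:176994099-176995619 in HOXD. All 4 of the latter intervals hold 1.

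Over the 51 union regions present in every list, GSK 24 h was the lowest list in 37. Height fell from vehicle through GSK 4 h to GSK 24 h in 23, which were 9 of 14 in HOXA, 3 of 10 in HOXB, 5 of 19 in HOXC and 6 of 8 in HOXD. GSK 4 h was the highest list in 24, of which 13 lay in HOXC, 5 in HOXB, 4 in HOXA and 2 in HOXD. Over the 72744 union regions of the genome present in every list, GSK 24 h was the lowest in 31.6%, the fall through GSK 4 h to GSK 24 h was seen in 15.4% and GSK 4 h was the highest in 46.0%. The orders depend on the scale. By tags per kb alone, GSK 24 h was the lowest in 30 of 51 (genome 25.9%), the fall was seen in 21 (genome 15.0%) and GSK 4 h was the highest in 15 (genome 28.0%), with 8 of 19 in HOXC, level with the 8 where vehicle was the highest.

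Beside the split by cluster stood a split by vehicle height. Of the matched HOX regions with a vehicle height of 80 or more, 15 of 15 were lower by 1.5-fold in GSK 4 h and 17 of 17 in GSK 24 h, against 93.3% and 96.7% of all matched regions of that height. Their median GSK 24 h ratio was 0.216, with a lowest ratio of 0.113 and a highest of 0.476 among the 17, against a median of 0.269 over the genome. Between 30 and 80, 5 of 20 HOX regions were lower in GSK 24 h (genome 26.6%), and under 30 it was 1 of 15 (genome 2.81%). The HOX share and the genome share thus rose together from class to class. The cuts at 30 and 80 were chosen after the values were seen, and choosing regions by a high vehicle value favours ratios under 1.

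The clusters differed in how many such tall regions they held. Of the regions matched between vehicle and GSK 24 h, those with a vehicle height of 80 or more were 7 of 13 in HOXA, 5 of 8 in HOXD, 2 of 12 in HOXB and 3 of 19 in HOXC. Their median ratios were 0.213, 0.215, 0.296 and 0.233. Between 30 and 80, the median ratios were 0.432 in HOXA (n = 3), 0.538 in HOXD (n = 2), 0.848 in HOXB (n = 4) and 0.864 in HOXC (n = 11).

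**Figure D4:**
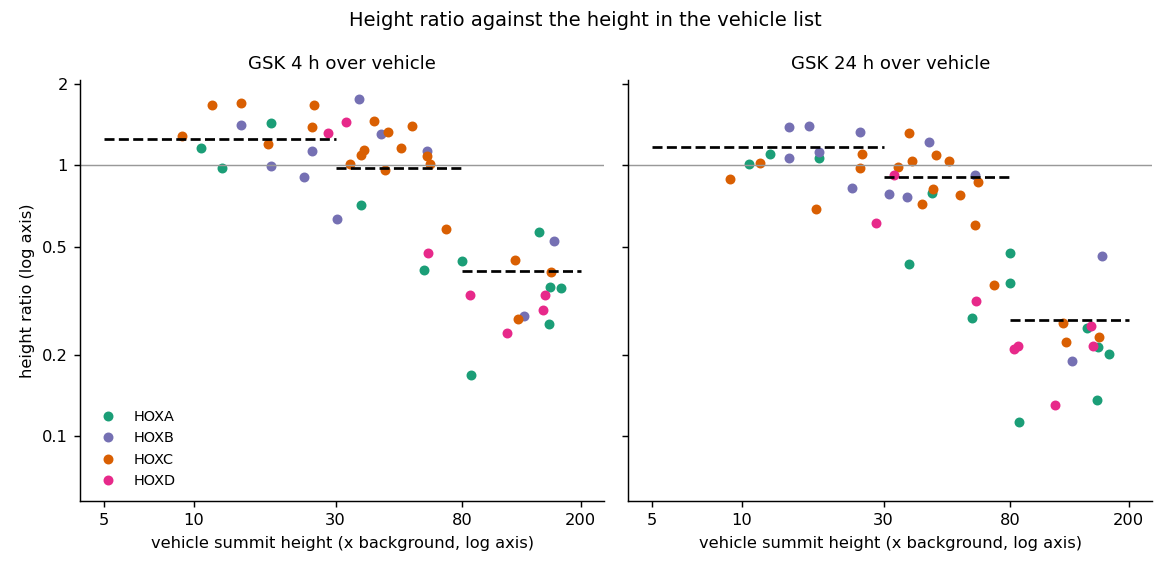
Height ratio (log axis) of each matched HOX region against its vehicle height (log axis), for GSK 4 h (left) and GSK 24 h (right) over vehicle, coloured by window. Dashed lines mark the median of all matched regions below 30, from 30 to 80 and from 80, and every HOX point from 80 up lies at 0.567 or below.

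Regions were also chosen by the list not compared, so that the choice did not use either value of the ratio, although a GSK list as the chooser shares its treatment with the GSK list compared. Among matched regions in the tallest 10% by GSK 4 h, HOX regions (n = 18) had a median log2 ratio of GSK 24 h over vehicle of −0.60, against −0.46 for all such regions, and 9 of 18 were lower by 1.5-fold, against 47.5%. Among the tallest 10% by GSK 24 h, HOX regions (n = 15) had a median GSK 4 h over vehicle of 0.11, against −0.03, and 33.3% were lower, against 28.3%. Among the tallest 10% by vehicle, all 24 HOX regions were lower by height in GSK 24 h than in GSK 4 h, against 87.9% of all such regions. Of these HOX regions, 58.3% passed 1.5-fold, against 43.2%. This choice was made by height only and was not repeated by tags per kb, and the shorter GSK 4 h fragments affect it. Over all matched regions of the genome, the median log2 ratio of GSK 24 h over GSK 4 h was −0.15 by height and 0.09 by tags per kb.

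Tags in 10 kb around a summit, which do not depend on the fragment length, also put HOXA and HOXD below HOXB and HOXC, while HOXB and HOXC changed places at 4 h. For GSK 4 h over vehicle the median log2 ratio of this density was −0.35 in HOXA, 0.30 in HOXB, 0.19 in HOXC and −0.71 in HOXD, against 0.07 over the genome. For GSK 24 h it was −0.79, 0.00, −0.22 and −1.34, against 0.13. At chr2:177001077-177001794 in HOXD, the density was 5.19 times the mean in vehicle, 3.17 in GSK 4 h and 2.11 in GSK 24 h. At chr7:27169691-27170617 in HOXA it was 5.12, 1.67 and 1.43.

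The median HOX region was 660 bp wide in vehicle, 864 bp in GSK 4 h and 782.5 bp in GSK 24 h. Of the matched regions, 37 of 48 were wider in GSK 4 h than in vehicle (77.1%, genome 57.8%) and 34 of 52 were wider in GSK 24 h (65.4%, genome 65.2%), a share at the genome level.

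The window edges cut few regions. The HOXB region that begins at position 46599449 in vehicle crossed the low edge in all 3 lists with 30, 38 and 30 fragments, and a HOXA region crossed the high edge in GSK 4 h (46 fragments) and GSK 24 h (35 fragments), while its vehicle counterpart with 43 fragments began 54 bp outside. The nearest region outside HOXD on the low side, 3816 bp away in vehicle, had 68 fragments, against 316 for the first one inside.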

How the data were processed

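H3K4me2 ChIP-seq of 6 LNCaP samples was deposited by the authors as 1 narrowPeak list per group, each made from both replicates. The submitters' processing notes name BWA 0.7.2-r351, SAMtools 0.1.18, MACS2 2.0.10.20131216 and hg19. Whether an input library was used is not given in the sources used here. Each deposited record holds a fold enrichment (a ratio over the local background), the −log10 of its p-value and of its q-value, a display score and a summit offset, and the authors scaled none of these between lists. The score was not used for any result.

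From the deposited fold and p-value of each region on the main chromosomes, the whole number of fragments over the summit and the background were recovered with a Poisson model, within 0.001, for 99.998% of vehicle regions and 100% of both GSK lists. The genome-wide background was 2.08 fragments in vehicle, 1.88 in GSK 4 h and 1.97 in GSK 24 h, or 9.43, 10.1 and 8.98 tags per kb, and it served as the measure of depth, since total reads were not used here. Fragment lengths read from the narrowest regions were 221, 186 and 219 bp. The highest summit of each list held 434, 364 and 431 fragments, just under 2 per base of the fragment length (442, 372 and 438), which is the ceiling where duplicates are removed. The recovery was also run on simulated data made with the same formulas, which checks the calculation and cannot show that the deposited values follow that model.

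Height is the recovered count divided by the genome-wide background. Regions were matched 1 to 1 between lists by overlap, and called past 1.5-fold. Intervals are exact Poisson for counts, Wilson for shares and exact conditional for ratios of 2 counts, all at 95% and for counting error only, and medians have order-statistic intervals over regions, which are not replicates. With 1 list per group there was no test. Alternatives were stricter q-values, equal list lengths, merging, other window edges, overlaps, scalings and folds. The members and lists were chosen with earlier results of these data known. Regions named are, in each window, the tallest, those with the lowest and highest matched ratio, the longest stretch without a region, and the 5 of highest −log10 q found in vehicle alone or in both GSK lists alone. The other regions given as examples were chosen after their values were seen. Gene order, starts and sequences are from RefSeq GRCh38.p14. Python 3.11.15, numpy 2.4.6, pandas 2.3.3 and scipy 1.17.1 were used.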

Additional observations from a re-analysis of the deposited data

Results flagged for a closer look

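The median log2 height ratio against vehicle had opposite signs at 4 and 24 h over all matched HOX regions (0.0023 in GSK 4 h and −0.3753 in GSK 24 h), in HOXB (0.0782 and −0.0194) and in HOXC (0.1993 and −0.2102). These differences between the time points were not tested, since each group has 1 list and both share the vehicle list. The signs at 4 h depend on the scale. By the deposited fold the 4 h medians were −0.1865 over all matched HOX regions, −0.1639 in HOXB and −0.0161 in HOXC. By tags per kb alone they were −0.2464, −0.1705 and −0.0494. By tags in 10 kb they were 0.1024, 0.3042 and 0.1897.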

How the results depend on the processing

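Of 273 recomputed values, 242 stayed within the interval of the reported value (Wilson for shares, the wide spread over regions for medians) or, for counts and lengths, within 1.5 times of it. The medians of HOXA and HOXD against vehicle stayed negative under every scaling, matching rule and window edge tried, but their size changed. By fold they were −0.47 and −0.46 at 4 h and −0.57 and −0.47 at 24 h, by tags in 10 kb −0.35, −0.71, −0.79 and −1.34, and with all overlapping pairs HOXA was −0.49 at 4 h. By the deposited fold, the regions lower by 1.5-fold were 12 (GSK 4 h over vehicle), 15 (GSK 24 h over vehicle) and 1 (GSK 24 h over GSK 4 h), and 2 were higher in GSK 24 h over vehicle. The median log2 ratio of GSK 24 h over GSK 4 h was then −0.0898 over all 4 windows, −0.20 in HOXA, −0.0898 in HOXC and −0.0439 in HOXD. The HOXC median of GSK 4 h over vehicle turned to −0.0161 by fold, −0.0144 by −log10 p and −0.0494 with depth taken without fragment length. By −log10 p, 7 regions were higher in GSK 4 h over vehicle, 4 in GSK 24 h over vehicle and 4 in GSK 24 h over GSK 4 h. Without fragment length, GSK 24 h over GSK 4 h had a median of −0.34 (−0.35 in HOXA) and 8 lower regions, and GSK 4 h over vehicle had 0 higher regions. With all overlapping pairs 7 were higher in GSK 4 h over vehicle. By tags in 10 kb, 9 were lower and 2 higher there. At a fold of 2, the higher count there was 0 and the lower count of GSK 24 h over GSK 4 h was 4. With 50% of both regions covered, the share of vehicle regions found at 4 h was 63.0%, that of GSK 4 h regions found in vehicle was 68.1% and at 24 h was 75.4%, and 78.8% of the 24 h regions were found at 4 h. With a stricter −log10 q (5 or more) and with lists cut to one length, vehicle held 91.1 and 91.2% of the 24 h regions and GSK 4 h held 100%. The cause of these moves was not tested. Scaling without fragment length, tags in 10 kb and union summits were added after seeing the data. No paired analysis was possible because the replicates of a group were merged into 1 list, so none could be left out either.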
